A study of Homo sapiens with 15 samples.

Results

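The genes described here serve cystine uptake, glutathione synthesis and the NRF2 antioxidant pathway: SLC7A11, GCLC, GCLM, GSR, NQO1, TXNRD1, HMOX1, SRXN1, NFE2L2 and KEAP1. They were chosen by name with earlier results of these data known, so their counts beside those over all genes are descriptions and not tests. Every probe set whose only platform gene symbol is 1 of these 10 was taken. This gave 22 of the 54675 probe sets on the array. SLC7A11, GCLC, GCLM, NQO1 and NFE2L2 had 3 probe sets each, GSR and TXNRD1 had 2 each, and HMOX1, SRXN1 and KEAP1 had 1 each. RNA was measured on Affymetrix arrays in A2780, a human ovarian cancer line sensitive to cisplatin, and in CP70 (A2780/cp70), its cisplatin-resistant derivative. The 15 arrays formed 5 groups of 3: untreated A2780; untreated CP70; CP70 given decitabine at 0.1 µM for 48 h; CP70 given PXD101 at 0.1 µM for 48 h; and CP70 given decitabine at 0.1 µM for 48 h with PXD101 at 0.1 µM for the last 24 h. Harvest of treated cells came 96 h after drug removal, so the arrays show what remained after a drug-free interval. For the untreated groups no matching harvest time is recorded here, and the part of culture time was not tested. Decitabine traps DNA methyltransferases, and PXD101 (belinostat) inhibits histone deacetylases. PXD101 exposure was longer without decitabine than with it, all drug arms share the CP70 line, and A2780 was measured only untreated. Each line is 1 cell line, so a difference between A2780 and CP70 describes this pair of lines and not cisplatin resistance in general.

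NRF2, encoded by NFE2L2, is a transcription factor that KEAP1 binds in the cytoplasm and delivers to a ubiquitin ligase for degradation. Oxidants and electrophiles modify cysteines of KEAP1, NRF2 then accumulates in the nucleus, pairs with small MAF proteins and binds antioxidant response elements. Its targets supply reducing power: SLC7A11 is the transport subunit of the antiporter xCT, which imports cystine in exchange for glutamate, and the glutamate-cysteine ligase subunits GCLC and GCLM make the first and rate-limiting step of glutathione synthesis. Glutathione binds platinum, and its level has long been studied in cisplatin resistance of ovarian cancer cells. SLC7A11 and several of its neighbours in amino acid metabolism are also targets of ATF4, the transcription factor of the integrated stress response, and HMOX1 is repressed by BACH1.

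The promoter windows of the genes that hold the core of the antioxidant response element are shown because this element is where NRF2 acts. RefSeq windows on GRCh38.p14, each from 250 bases before to 50 bases after an annotated start, were matched by symbol and gave 10 windows for 7 of the genes, 2 each for TXNRD1, NFE2L2 and KEAP1 and 1 each for GCLM, GCLC, NQO1 and SRXN1. No window was searched for SLC7A11, HMOX1 or GSR. The core was searched as TGACNNNGC on both strands, and capitals mark each match. It was present in windows of GCLM, TXNRD1 and KEAP1.
GCLM chr1:93909381-93909680 (minus strand): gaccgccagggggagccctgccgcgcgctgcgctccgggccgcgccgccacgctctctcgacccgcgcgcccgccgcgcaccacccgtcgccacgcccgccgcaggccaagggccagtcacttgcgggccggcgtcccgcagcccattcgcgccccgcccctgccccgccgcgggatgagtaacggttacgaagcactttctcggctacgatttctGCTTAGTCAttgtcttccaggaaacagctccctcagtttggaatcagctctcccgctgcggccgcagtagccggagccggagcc
TXNRD1 chr12:104215529-104215828 (plus strand): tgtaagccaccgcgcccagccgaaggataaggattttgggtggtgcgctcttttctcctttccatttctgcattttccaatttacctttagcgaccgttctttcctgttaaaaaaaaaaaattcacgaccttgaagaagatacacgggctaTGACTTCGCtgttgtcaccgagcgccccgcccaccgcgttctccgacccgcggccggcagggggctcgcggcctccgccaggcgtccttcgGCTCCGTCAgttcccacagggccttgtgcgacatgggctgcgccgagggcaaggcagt
TXNRD1 chr12:104286782-104287081 (plus strand): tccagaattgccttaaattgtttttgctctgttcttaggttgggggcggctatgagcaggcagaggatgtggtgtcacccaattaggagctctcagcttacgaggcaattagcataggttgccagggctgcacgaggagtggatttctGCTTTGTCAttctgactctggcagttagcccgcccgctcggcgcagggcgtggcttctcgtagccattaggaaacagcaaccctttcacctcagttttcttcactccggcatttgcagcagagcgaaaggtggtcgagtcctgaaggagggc
KEAP1 chr19:10502722-10503021 (minus strand): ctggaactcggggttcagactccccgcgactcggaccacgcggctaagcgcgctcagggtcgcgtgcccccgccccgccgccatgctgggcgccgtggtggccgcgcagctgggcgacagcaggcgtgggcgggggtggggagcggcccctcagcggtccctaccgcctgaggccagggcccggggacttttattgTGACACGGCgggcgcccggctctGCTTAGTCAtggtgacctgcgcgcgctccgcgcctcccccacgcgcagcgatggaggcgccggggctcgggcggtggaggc
The single match in GCLM began 34 bases before the start. TXNRD1 had 2 matches in its first window, beginning 99 and 8 bases before that start, and 1 in its second window, 102 bases before the start; KEAP1 had 2, beginning 54 and 31 bases before the start. The windows of GCLC, NQO1, SRXN1 and NFE2L2 and the other KEAP1 window (chr19:10503307-10503606) did not contain these letters, which says nothing about elements farther away. Of all 35116 windows in the table, 13.35% held the core. The element bound by ATF4 with C/EBP partners, searched as TGATGNAA on both strands, was in 3.62% of all windows and in none of these 10. CG dinucleotides, the sites of DNA methylation that decitabine reduces, numbered from 12 in the second TXNRD1 window to 46 in the SRXN1 window, against a median of 14 over all windows.

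Values were log2 expression from 2.39 to 14.52 with a median of 5.03 and quartiles at 3.74 and 7.33, and array medians lay between 5.00 and 5.05. Of the 22 probe sets, 1 had a mean below the lower quartile (a TXNRD1 probe set, 1561080_at, mean 2.83), and no probe set was removed for a low value. Levels below are those of the probe set with the highest mean of each gene unless another is named, and since probe sets differ in response, levels are compared between arrays and not between genes. Leukocyte markers were low on all arrays (group means of CD3E from 4.75 to 4.82, PTPRC from 3.76 to 3.95 and CD14 from 4.06 to 4.39), as were 2 ovarian carcinoma markers, WT1 (from 3.62 to 3.68) and MUC16 (from 3.79 to 4.04), while PAX8 had means from 7.08 to 7.30. Of 5 fibroblast and endothelial markers, CDH5 (from 3.43 to 3.65), VWF (from 4.47 to 4.55) and PECAM1 (from 5.14 to 5.31) were near or below the median of all values. PDGFRB (from 6.38 to 6.84) and THY1 (from 7.94 to 8.74) were above it. PDGFRB was lower in CP70 than in A2780 (-0.39, adjusted p = 0.0132), and THY1 was higher after decitabine than in CP70 (0.70, adjusted p = 0.0171). Of 7 ovarian carcinoma and epithelial markers, 2 were higher in CP70 than in A2780, EPCAM (group means 6.36 and 7.24) and KRT18 (7.71 and 9.56). Against untreated CP70, 3 of the 7 were higher after decitabine and the same 3 after both drugs. These were EPCAM (7.95 and 8.06), KRT18 (10.52 and 10.60) and KRT8 (8.05 and 8.29, from 6.68 in CP70). The part of these marker changes in the results below was not tested. In RNA from a whole culture, a change in the share of cells that carry a transcript and a change in the amount per cell cannot be told apart.

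Untreated CP70 replicate 2 stood apart from the other untreated CP70 arrays. Its correlation over all probe sets was 0.9945 to 0.9955 with any array of the PXD101 group, but only 0.9843 with CP70 replicate 1 and 0.9861 with CP70 replicate 3, a pair that reached 0.9968. Among the 10 genes it lay nearer to the PXD101 mean than to the mean of CP70 replicates 1 and 3 for 9 (all but GSR), and 67.9% of the 19775 genes on the array did the same. Whether this array carries the right label was not tested, so it is called the array labelled CP70 replicate 2, and every comparison with untreated CP70 is given with all 3 arrays, without that array, and against that array alone. Against that array alone its spread is assumed to be that of the other groups. The difference between 3′ and 5′ actin probe sets, a measure of RNA integrity and of amplification, was 0.859, 0.629 and 0.647 on the CP70 arrays, 0.337 to 0.377 in A2780, 0.384 to 0.509 after PXD101, 0.342 to 0.787 after decitabine and 0.424 to 0.491 after both drugs. It was thus higher on the untreated CP70 arrays than on every other array except decitabine replicate 3 (0.787). Its part in the results below was not tested.

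**Figure D1:**
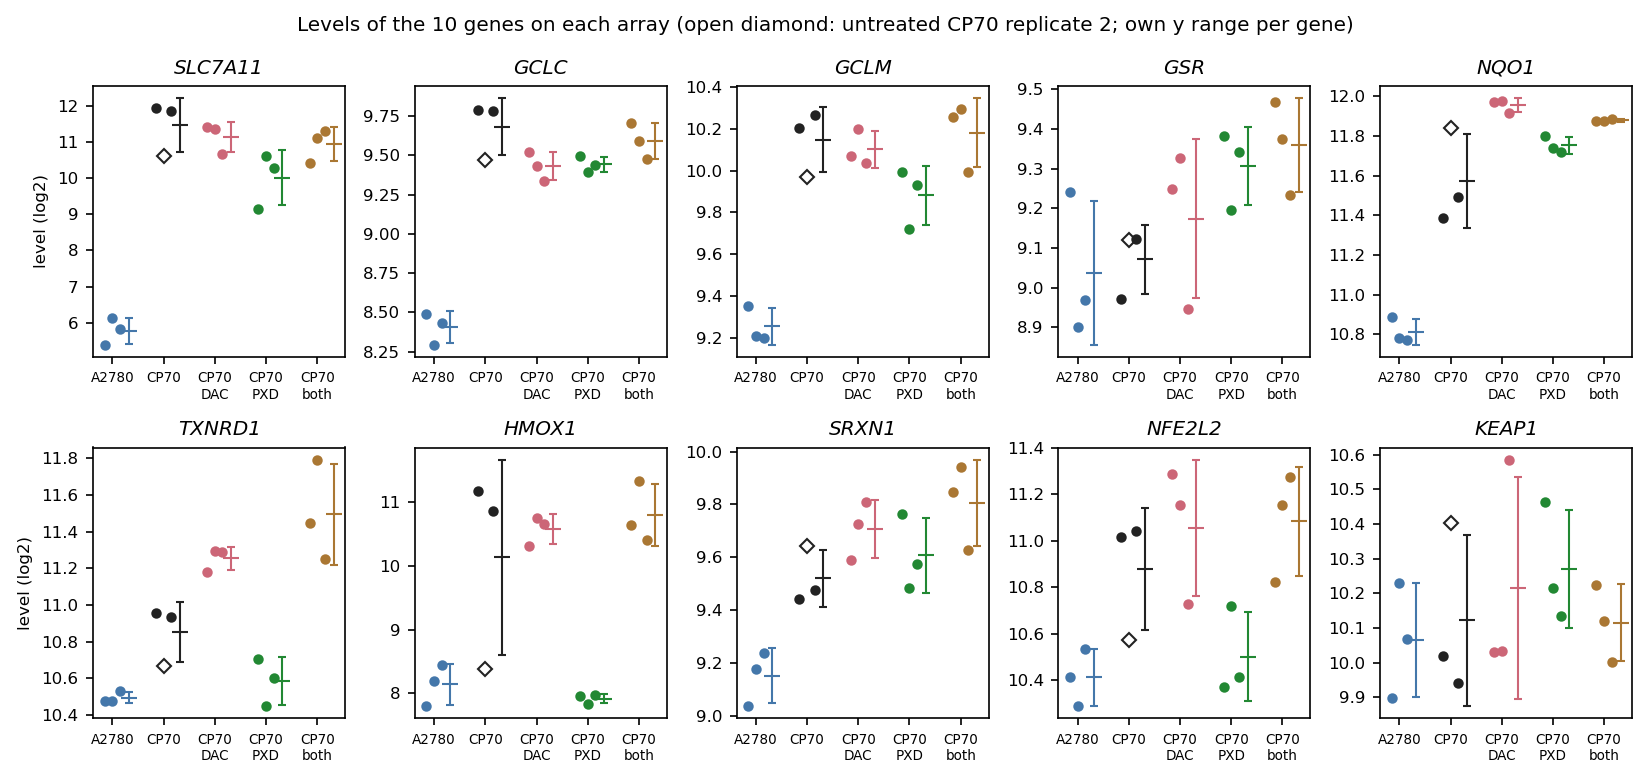
Level (log2) of each of the 10 genes on each of the 15 arrays, with replicates 1 to 3 from left to right in each group and the group mean with its SD beside them; the y range differs between genes. The open diamond is the array labelled CP70 replicate 2, at 8.38 for HMOX1 where CP70 replicates 1 and 3 were at 11.16 and 10.85. DAC is decitabine, PXD is PXD101 and both is the combination.

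The comparison of untreated CP70 with A2780 asks how the resistant line differs from its parent. Of the 10 genes, 6 were higher in CP70 and 0 lower, where 15.4% of all genes were higher and 14.5% lower: SLC7A11 by 51.6-fold, HMOX1 by 3.96-fold, GCLC by 2.42-fold, GCLM by 1.86-fold, NQO1 by 1.69-fold and SRXN1 by 1.29-fold. TXNRD1, NFE2L2, GSR and KEAP1 did not pass the test, a limma fit over all probe sets with a Benjamini-Hochberg adjusted p under 0.05. Counted by probe set, 12 of 22 were higher and 0 lower, where 24% of all probe sets were called in either direction and 11.5% were higher. The groups did not overlap for 15 of the 22 (33.3% of all probe sets). Rank product called 4 probe sets, HMOX1 and all 3 of SLC7A11, so that GCLC, GCLM, NQO1 and SRXN1 were not called by it. Of all 54613 probe sets it called 1231 higher and 1229 lower. The limma count was 13 without CP70 replicate 2, where 29.2% of all probe sets were called. Against CP70 replicate 2 alone it was 10, where 12.2% were called. The median difference of the 10 genes was 0.61, against 0.01 over all genes. Since the genes were chosen with earlier results of these data known, these counts and this median are descriptions.

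SLC7A11, the cystine transporter, gave the widest separation of the lines. Its levels in A2780 were 5.40, 6.12 and 5.81, with a mean of 5.78 ± 0.36 (SD, n = 3), and in untreated CP70 they were 11.93, 10.61 and 11.86, with a mean of 11.47 ± 0.74. Every CP70 array lay above every A2780 array. The difference was 5.69 ± 0.39 (SE; adjusted p = 2.84e-08). It was 6.12 without CP70 replicate 2 and 4.83 against that array alone (adjusted p = 5.88e-06). The other SLC7A11 probe sets gave differences of 6.30 ± 0.43 (217678_at) and 4.42 ± 0.45 (207528_s_at). At 4.04, 4.38 and 4.04, the A2780 arrays lay below the median of all values on 207528_s_at.

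The ligase that begins glutathione synthesis was higher in CP70 in both of its subunits. GCLC, the catalytic subunit, had levels of 8.49, 8.30 and 8.43 in A2780 and 9.79, 9.47 and 9.78 in CP70. The difference was 1.27 ± 0.10 (adjusted p = 1.98e-07), and 1.06 against CP70 replicate 2 alone. A second GCLC probe set, 202922_at, gave 1.20 ± 0.10, while the third, 1555330_at, had a mean of 3.81 over all arrays and was not called (difference -0.08, adjusted p = 0.729). GCLM, the modifier subunit that raises the enzyme's activity, had levels of 9.35, 9.21 and 9.20 in A2780 and 10.20, 9.97 and 10.26 in CP70. Its difference was 0.89 ± 0.11 (adjusted p = 2.19e-05), and the other GCLM probe sets gave 0.55 ± 0.09 (234986_at) and 0.65 ± 0.12 (236140_at). No CP70 array reached down to an A2780 array for either subunit. GSR, the reductase that returns oxidised glutathione to its reduced form, had overlapping levels of 9.24, 8.90 and 8.97 in A2780 and 8.97, 9.12 and 9.12 in CP70. Its difference was 0.03 ± 0.12 (adjusted p = 0.895), and the other GSR probe set, 225609_at, gave -0.06 (adjusted p = 0.775).

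Among the detoxification and thioredoxin enzymes, NQO1 and SRXN1 were higher in CP70. NQO1, a quinone reductase and a standard readout of NRF2 activity, had levels of 10.89, 10.78 and 10.77 in A2780 and 11.39, 11.84 and 11.49 in CP70. The difference was 0.76 ± 0.10 (adjusted p = 4.43e-05), and here CP70 replicate 2 was the highest of the CP70 arrays. The probe set 201467_s_at gave 0.78 ± 0.11, and 201468_s_at gave 0.41 ± 0.16, which did not pass (adjusted p = 0.081; 0.90 with adjusted p = 0.000441 against CP70 replicate 2 alone). SRXN1, which repairs over-oxidised peroxiredoxins, had levels of 9.04, 9.18 and 9.24 in A2780 and 9.44, 9.64 and 9.48 in CP70. The groups did not overlap, with a difference of 0.37 ± 0.11 (adjusted p = 0.0219). The call on SRXN1 was lost without A2780 replicate 1 (adjusted p = 0.0905), without CP70 replicate 2 (adjusted p = 0.0675) and against CP70 replicate 2 alone (adjusted p = 0.0584), with differences of 0.31, 0.31 and 0.49. TXNRD1, the cytosolic thioredoxin reductase, had levels of 10.48, 10.48 and 10.53 in A2780 and 10.96, 10.67 and 10.93 in CP70. These did not overlap either, but the difference of 0.36 ± 0.13 missed the threshold (adjusted p = 0.0509) and passed it without CP70 replicate 2 (0.45, adjusted p = 0.0157).

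HMOX1, which breaks down heme to biliverdin, carbon monoxide and iron, had the widest spread of the 10 genes within a group. Its levels were 7.80, 8.19 and 8.44 in A2780 and 11.16, 8.38 and 10.85 in untreated CP70. CP70 replicate 2 thus lay within the A2780 range, and replicates 1 and 3 lay above it. With all arrays the difference was 1.99 ± 0.50 (adjusted p = 0.00796). It was 2.86 without CP70 replicate 2 (adjusted p = 1.22e-07), and against that array alone it was 0.24 (adjusted p = 0.757). The call on HMOX1 was thus not made against CP70 replicate 2 alone.

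Neither the transcription factor nor its inhibitor passed the test between the lines with all arrays. NFE2L2 had levels of 10.42, 10.29 and 10.53 in A2780 and 11.02, 10.58 and 11.04 in CP70. CP70 replicates 1 and 3 were the high arrays and replicate 2 lay just above the highest A2780 array, so the groups did not overlap. The difference of 0.46 ± 0.17 missed the threshold (adjusted p = 0.057) and was 0.62 without CP70 replicate 2 (adjusted p = 0.00972). Neither of the other NFE2L2 probe sets was called in this comparison. Probe set 1567013_at gave 0.14 (adjusted p = 0.68). The dimmer 1567015_at, with a mean of 4.33, went the other way without overlap (-0.32, adjusted p = 0.0784). KEAP1 had levels of 9.90, 10.23 and 10.07 in A2780 and 10.02, 10.40 and 9.94 in CP70, which overlapped, with a difference of 0.06 ± 0.16 (adjusted p = 0.87). KEAP1 and GSR were not called in any of the 10 pairwise comparisons of groups. The arrays measure RNA, and NRF2 is controlled mainly at the protein level.

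The treated CP70 groups were also set against A2780, which leaves the untreated CP70 arrays out of the differences. Those arrays still enter the shared estimate of spread, and with it the SE and adjusted p. These comparisons share the 3 A2780 arrays with each other and with the one above. After decitabine 13 of the 22 probe sets were higher and 0 lower (23.9% of all called in either direction), after PXD101 10 and 0 (16.6%), and after both drugs 15 and 0 (25.6%). The groups did not overlap for 17, 10 and 18 probe sets, where 36.2%, 32.8% and 41.2% of all did not. By gene, 8, 5 and 8 of the 10 were higher, where 16.4%, 11.5% and 16.8% of all genes were. SLC7A11, GCLC, GCLM, NQO1 and SRXN1 were the 5 genes whose 12 CP70-line arrays, treated or not, all lay above the 3 A2780 arrays, as 10.9% of all genes did. Of the 22 probe sets 9 did so and 0 lay wholly below, where 7.62% of all probe sets lay wholly above and 8.56% wholly below.

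SLC7A11 stayed high in every treated group, with levels of 11.41, 11.36 and 10.66 after decitabine, 9.15, 10.62 and 10.28 after PXD101, and 10.42, 11.11 and 11.31 after both drugs. Against A2780 this was 41.3-fold, 18.9-fold (adjusted p = 9.25e-07) and 36.0-fold. By group mean the order was untreated CP70 (11.47), decitabine (11.15 ± 0.42), both drugs (10.95 ± 0.46), PXD101 (10.02 ± 0.77) and A2780 (5.78). Each neighbouring pair of CP70-line groups in this order overlapped, and no CP70-line group overlapped A2780. GCLC was 1.02 higher than in A2780 after decitabine, 1.04 after PXD101 and 1.19 after both drugs. GCLM was 0.85, 0.63 and 0.93 higher, NQO1 1.14, 0.94 and 1.07 higher, and SRXN1 0.56, 0.46 and 0.65 higher. All of these passed the test. The other 2 GCLM probe sets passed only after both drugs. In the same order 234986_at gave 0.11 (adjusted p = 0.459), 0.09 (adjusted p = 0.609) and 0.29 (adjusted p = 0.0256). Probe set 236140_at gave 0.26 (adjusted p = 0.123), 0.09 (adjusted p = 0.723) and 0.45 (adjusted p = 0.00867).

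HMOX1, TXNRD1 and NFE2L2 were above A2780 after decitabine and after both drugs but not after PXD101 alone. HMOX1 was 2.42 ± 0.50 higher after decitabine (adjusted p = 0.0018), 2.64 ± 0.50 higher after both drugs (adjusted p = 0.000824) and -0.23 ± 0.50 from A2780 after PXD101 (adjusted p = 0.854). TXNRD1 gave 0.76 ± 0.13, 1.00 ± 0.13 and 0.09 ± 0.13 in the same order, the last with adjusted p = 0.747. NFE2L2 gave 0.64 ± 0.17 (adjusted p = 0.00972), 0.67 ± 0.17 (adjusted p = 0.00691) and 0.09 ± 0.17 (adjusted p = 0.825). The call on NFE2L2 after decitabine was lost without decitabine replicate 1 (0.53, adjusted p = 0.0539). Over the mean of its 3 probe sets, NFE2L2 was not called after either treatment. Probe set 1567015_at went the other way, at -0.35 after decitabine (adjusted p = 0.0604) and -0.36 after both drugs (adjusted p = 0.0504). Probe set 1567013_at gave 0.23 (adjusted p = 0.426) and 0.49 (adjusted p = 0.0611).

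**Figure D2:**
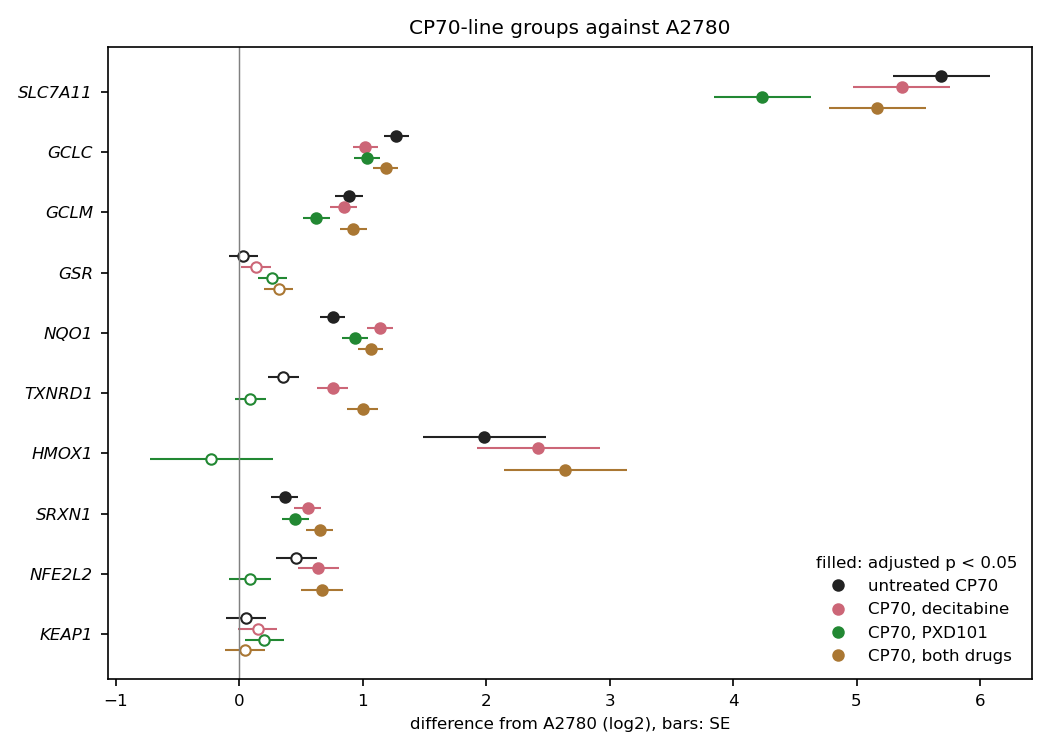
Difference from A2780 (log2, with SE bars) of each gene in untreated CP70 and in CP70 after decitabine, PXD101 or both drugs; filled points had an adjusted p under 0.05. SLC7A11 lay between 4.24 and 5.69 in all 4 groups, and HMOX1 lay at -0.23 after PXD101 against 1.99 to 2.64 in the other groups.

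The comparison of PXD101 with untreated CP70 asks how the cells differed 96 h after removal of the histone deacetylase inhibitor. HMOX1 and SLC7A11 were lower and no gene was higher. By probe set 4 of 22 were lower and 0 higher (5.92% of all called in either direction, 2.92% lower): HMOX1, 1 SLC7A11 probe set and 2 GCLM probe sets. The groups did not overlap for 6 (20.1% of all). HMOX1 was uniformly low after PXD101, at 7.95, 7.84 and 7.97, with all 3 arrays below even the array labelled CP70 replicate 2 (8.38). It was 4.63-fold lower than in CP70 (difference -2.21 ± 0.50, adjusted p = 0.0288). Without CP70 replicate 2 the difference was -3.09 (adjusted p = 5.78e-07), and against that array alone it was -0.46 (adjusted p = 1.0).

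SLC7A11 was 2.73-fold lower after PXD101 (difference -1.45 ± 0.39, adjusted p = 0.0449), although CP70 replicate 2 (10.61) lay below PXD101 replicate 2 (10.62), so the groups overlapped. The difference was -1.88 without CP70 replicate 2 (adjusted p = 0.00135) and -0.59 against it alone (adjusted p = 1.0). The other SLC7A11 probe sets differed by -1.49 (217678_at, adjusted p = 0.0531) and -1.39 (207528_s_at, adjusted p = 0.0778). The lower GCLM probe sets were 234986_at (-0.45, adjusted p = 0.0254) and 236140_at (-0.56, adjusted p = 0.0259), while the brightest, at 9.99, 9.72 and 9.93 after PXD101, gave -0.26 (adjusted p = 0.172). Rank product also called 4 lower here, HMOX1 and all 3 SLC7A11 probe sets, and no GCLM probe set. Of all 54613 probe sets it called 482 lower and 269 higher. Every PXD101 limma call depended on the choice of arrays. With arrays left out, the share over all probe sets was counted only without CP70 replicate 2 and against it alone. As many as 13 probe sets were called without CP70 replicate 2, 3 higher and 10 lower (20.1% of all called). NQO1 was then among the higher genes (0.31, adjusted p = 0.0174) and NFE2L2 among the lower (-0.53, adjusted p = 0.0351). The count was 0 without CP70 replicate 1, without CP70 replicate 3, without any 1 of the PXD101 arrays, and against CP70 replicate 2 alone, where 0 probe sets on the array were called.

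After decitabine, 4 of 22 probe sets differed from untreated CP70, 2 higher and 2 lower (5.56% of all called in either direction), and 6 did not overlap (17.8% of all). NQO1 had levels of 11.97, 11.98 and 11.91 after decitabine, above all 3 untreated arrays. The difference was 0.38 ± 0.10, or 1.30-fold (adjusted p = 0.041), and NQO1 probe set 201467_s_at gave 0.43 ± 0.11 (adjusted p = 0.0353). The third NQO1 probe set, 201468_s_at, gave 0.45 ± 0.16 and did not pass (adjusted p = 0.13). Without CP70 replicate 2 the NQO1 difference was 0.52 (adjusted p = 0.000761), and against that array alone 0.12 (adjusted p = 0.753). The NQO1 call was also lost without any other 1 of the arrays compared, at adjusted p from 0.0785 without decitabine replicate 3 to 0.201 without CP70 replicate 1. The 2 lower probe sets were GCLC 202922_at (-0.39, adjusted p = 0.0368) and GCLM 234986_at (-0.43, adjusted p = 0.0108). The brightest probe sets of these genes gave -0.25 (adjusted p = 0.196) and -0.04 (adjusted p = 0.89), so the probe sets of GCLM did not move alike. The count over probe sets was 7 without CP70 replicate 2 (15.8% of all called) and 0 without CP70 replicate 1. The share over all probe sets was not counted without 1 array other than CP70 replicate 2, here or after both drugs. The count was 2 without decitabine replicate 1 and 1 without decitabine replicate 2 or 3 or without CP70 replicate 3. Against CP70 replicate 2 alone it was 1, HMOX1 (2.21% of all called).

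HMOX1 after decitabine turned on which untreated array it was set against. Its levels were 10.30, 10.75 and 10.66, all below CP70 replicates 1 and 3 and all above CP70 replicate 2. The difference was 0.44 with all 3 arrays (adjusted p = 0.715), -0.44 without CP70 replicate 2 (adjusted p = 0.26) and 2.19 against that array alone (adjusted p = 0.00118). SLC7A11 gave -0.32 (adjusted p = 0.74), -0.75 and 0.54 in the same 3 settings, none of which passed.

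After both drugs, 2 of 22 probe sets were higher than in untreated CP70 and 0 lower (7.02% of all called in either direction), and 6 did not overlap (21.6% of all). TXNRD1 had levels of 11.45, 11.79 and 11.25 after both drugs, above the untreated 10.96, 10.67 and 10.93. It was 1.56-fold higher (0.64 ± 0.13, adjusted p = 0.0055), 0.55 higher without CP70 replicate 2 (adjusted p = 0.00814) and 0.83 higher against that array alone (adjusted p = 0.0208). TXNRD1 was the 1 gene whose change against untreated CP70 passed the test in all 3 of these settings in any drug arm; it was not called when only the 6 arrays compared were fitted (adjusted p = 0.0858) or by rank product. The other probe set called was NQO1 201467_s_at (0.42, adjusted p = 0.0317), while the brightest NQO1 probe set, at 11.88, 11.87 and 11.89, gave 0.31 (adjusted p = 0.0901). HMOX1 had levels of 10.64, 11.33 and 10.39 and again spanned the untreated arrays: 0.66 with all 3 (adjusted p = 0.54), -0.22 without CP70 replicate 2 and 2.41 against it alone (adjusted p = 0.000403). The count was 4 without CP70 replicate 2 (16.9% of all called), 2 against that array alone (2.55%), and 1 without any other 1 of the arrays compared.

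**Figure D3:**
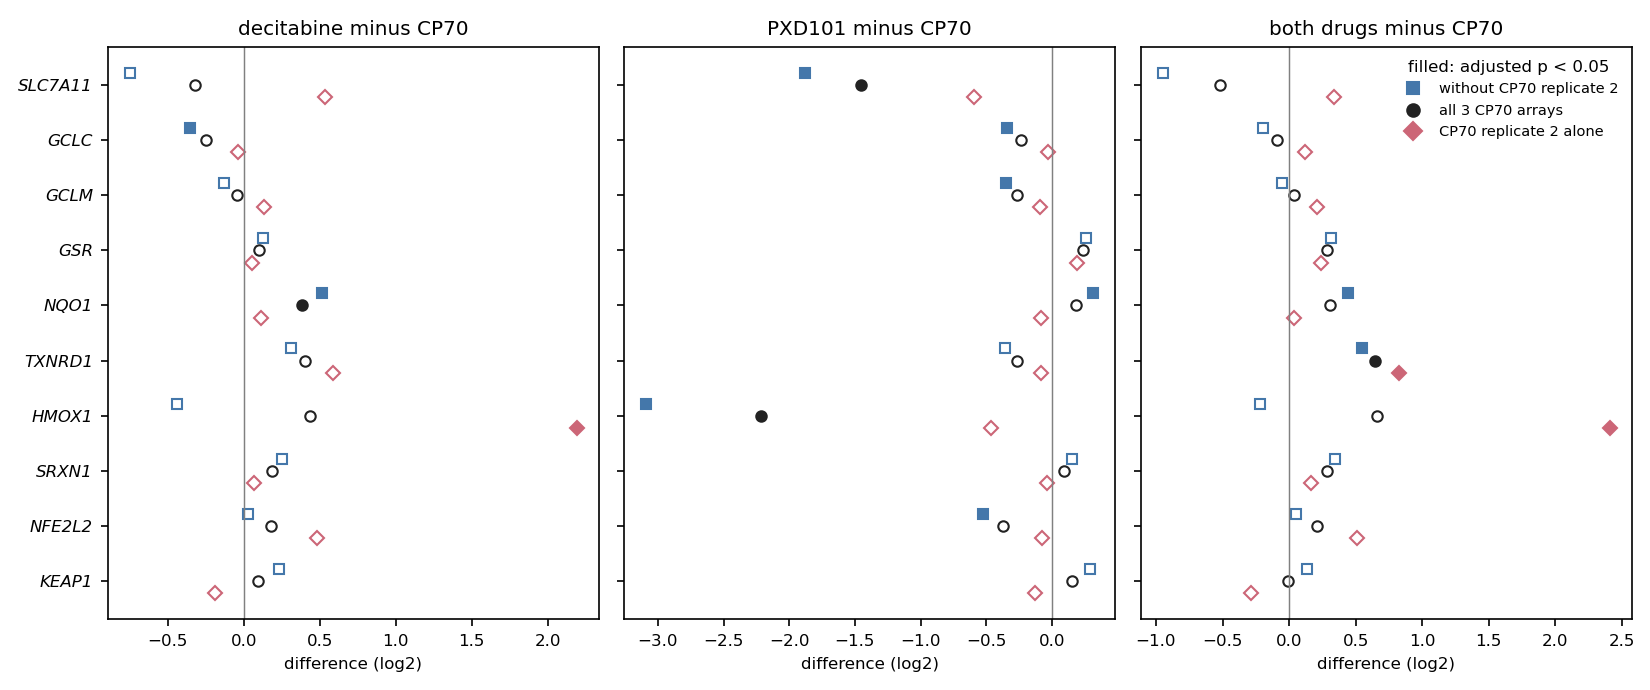
Difference from untreated CP70 (log2) of each gene after decitabine, PXD101 or both drugs, with all 3 untreated arrays (circles), without CP70 replicate 2 (squares) and against CP70 replicate 2 alone (diamonds); filled symbols had an adjusted p under 0.05. HMOX1 moved from -0.44 to 2.19 after decitabine with the choice of untreated arrays, while TXNRD1 after both drugs was filled in all 3 settings.

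The drug arms were also compared with each other, which leaves the untreated CP70 arrays out of the differences, although they still enter the shared estimate of spread. HMOX1 and TXNRD1 separated the decitabine-containing arms from PXD101 alone. Decitabine against PXD101 gave 2 probe sets higher and 0 lower of 22 (5.99% of all called in either direction; 9 did not overlap, 24.6% of all). HMOX1 was 6.28-fold higher after decitabine than after PXD101 (2.65 ± 0.50, adjusted p = 0.00504). TXNRD1, at 11.18, 11.29 and 11.29 after decitabine and 10.71, 10.45 and 10.60 after PXD101, was 1.59-fold higher (0.67 ± 0.13, adjusted p = 0.00499). SLC7A11 did not overlap between these arms, but its difference of 1.13 ± 0.39 did not pass (adjusted p = 0.111). Rank product called 3 higher, HMOX1 and SLC7A11 probe sets 209921_at and 207528_s_at, and not TXNRD1. Of all 54613 probe sets it called 934 higher and 524 lower. Without decitabine replicate 3, 4 probe sets were called by limma, and NFE2L2 was then among them (0.72, adjusted p = 0.0232).

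Both drugs against PXD101 alone gave 3 probe sets higher and 0 lower (7.28% of all called; 10 did not overlap, 29.4% of all): HMOX1, TXNRD1 and NFE2L2. HMOX1 was 7.30-fold higher (2.87 ± 0.50, adjusted p = 0.00238) and TXNRD1 was 1.88-fold higher (0.91 ± 0.13, adjusted p = 0.000364). Their arrays did not overlap between the arms. NFE2L2 had levels of 10.82, 11.15 and 11.28 after both drugs and 10.37, 10.72 and 10.42 after PXD101, a difference of 0.58 ± 0.17 (adjusted p = 0.048). The NFE2L2 call was lost without replicate 2 or 3 of the combined arm or without replicate 1 or 3 of PXD101, at adjusted p from 0.151 to 0.181. Rank product called 4 higher, HMOX1, TXNRD1 and SLC7A11 probe sets 207528_s_at and 217678_at, and not NFE2L2. Of all 54613 probe sets it called 1119 higher and 773 lower. The combined arm had a shorter PXD101 exposure, so the added decitabine and the exposure time cannot be told apart in this comparison. Both drugs against decitabine alone gave 0 of 22 probe sets by limma, with 0 at an unadjusted p under 0.05 too, and rank product also gave 0, and 2 of the 22 did not overlap (11.1% of all). By limma 2 of all probe sets on the array were called there (0.00366%), and by rank product 49 were higher and 3 lower. The 10 genes differed by -0.20 (SLC7A11) to 0.24 (TXNRD1).

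A non-additive response was taken as the change after both drugs minus the changes after decitabine and after PXD101. With all arrays 0 of 22 probe sets passed by limma (0.0146% of all). At an unadjusted p under 0.05 there were 10. The share over all probe sets at that level was not counted, so the 10 are not read as a trait of these genes. Rank product was not run for this contrast. The response was largest for HMOX1 at 2.43 ± 0.71 (adjusted p = 0.211), since HMOX1 after PXD101 was low and after both drugs was not. Without CP70 replicate 2, 12 probe sets passed, 9 positive and 3 negative, where 13.2% of all did: HMOX1 was 3.30 (adjusted p = 2.28e-05), SLC7A11 1.68 (adjusted p = 0.0318) and NQO1 -0.39 (adjusted p = 0.0388). Against CP70 replicate 2 alone the count was 0, where 0.0165% of all passed. The shorter PXD101 exposure of the combined arm enters this contrast too.

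Lists of genes around the 10 were counted in the same fit, with 1 probe set per gene. They were chosen with earlier results of these data known, so their counts are descriptions and not tests. Over all genes, 15.4% were higher and 14.5% lower in CP70 than in A2780 (17.6% and 19% without CP70 replicate 2, and 8.89% and 6.73% against that array alone). In this comparison, of 9 partners in cystine and glutathione metabolism 5 were higher and 0 lower, with a median difference of 0.56 (6 and 1 without CP70 replicate 2, and 1 and 0 against that array alone). SLC3A2, the heavy chain that carries SLC7A11 to the membrane, had levels of 9.13, 9.28 and 9.20 in A2780 and 12.03, 10.40 and 12.00 in CP70. It was 2.27 ± 0.37 higher (adjusted p = 0.000247), without overlap, and CP70 replicate 2 was again the lowest CP70 array. SLC1A4, a neutral amino acid transporter (2.27 ± 0.39), CTH, which makes cysteine from cystathionine (2.51 ± 0.45), and CHAC1, which degrades glutathione (3.36 ± 0.61), were higher as well. CHAC1 thus acts against the glutathione supply that the list's name describes, and it also belongs to the ATF4 list below. OPLAH, which recovers glutamate from 5-oxoproline, was the fifth (0.56). After PXD101, 4 of these 9 partners were lower than in CP70 and 0 higher, where 4.03% of all genes were lower, and SLC3A2 was among the 4 (-1.42, adjusted p = 0.0388). Without CP70 replicate 2 the count was 6 lower (11% of all genes), and against that array alone it was 0, as it was over all genes.

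Other NRF2 targets did not share 1 direction. In CP70, 10 of 26 were higher and 4 lower, with a median of 0.17 (8 higher and 1 lower against CP70 replicate 2 alone; 10 and 8 without it). The 4 lower genes are 15.4% of the list, near the 14.5% over all genes. The 4 with the smallest p were CBR3, IDH1, CBR1 and SQSTM1. CBR3, a carbonyl reductase, was far lower in CP70 (5.18, 5.43 and 5.54 against 9.52, 9.63 and 10.29 in A2780; difference -4.43 ± 0.18, adjusted p = 3.28e-11), and remained so after each treatment at -4.23 to -4.27. Its neighbour in function CBR1 was higher (1.21 ± 0.14). IDH1, which makes NADPH in the cytosol, was 0.96 ± 0.10 higher, and SQSTM1, the autophagy receptor that can bind KEAP1, was 2.09 ± 0.25 higher. After decitabine, 4 of the 26 were higher than in CP70 and 2 lower, where 4.38% and 2.66% of all genes were. The aldo-keto reductases AKR1C1 (0.96), AKR1C2 (1.25) and AKR1C3 (2.31, adjusted p = 3.58e-09) were 3 of the 4 and were named after their values were seen. These 3 were also higher after both drugs, and passed both without CP70 replicate 2 and against it alone in either arm. They are close paralogs whose probes can share signal. IDH1 went the other way, with a group mean of 11.87 in CP70 and 11.26 after decitabine.

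Of 11 regulators and dimer partners of NRF2, 3 were higher in CP70 and 2 lower, with a median of -0.04 (3 and 3 without CP70 replicate 2, and 0 and 2 against it alone). With 11 genes, the 2 lower are 18.2% of the list, near the share over all genes, and the 3 higher are 27.3%. BTRC, part of a ligase that degrades NRF2 independently of KEAP1, was lower (-0.64 ± 0.10), as was DPP3, which can bind KEAP1 (-0.85 ± 0.14). The related factor NFE2L1 (0.95 ± 0.16) and the small MAF protein MAFF (1.91 ± 0.46) were higher, but neither passed against CP70 replicate 2 alone (adjusted p = 0.0685 and 0.516). MAFG was the third higher gene (0.97, adjusted p = 0.0457). BACH1, the repressor of HMOX1, gave -0.04 (adjusted p = 0.863). MAFK was not analysed here.

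Genes of the ATF4 response were nearly all higher in CP70: 12 of 13 with a median of 1.99 and 0 lower. The shares over all genes were 15.4% higher and 14.5% lower. This list too was chosen with earlier results of these data known, so its count is a description. CEBPB was 2.41 ± 0.41 higher, CHAC1 3.36 ± 0.61, ATF3 5.33 ± 0.99 and TRIB3 3.00 ± 0.56; all 4 are transcription factors, pseudokinases or enzymes induced by amino acid or endoplasmic reticulum stress. The count was 13 without CP70 replicate 2, with a median difference of 2.52, and 0 against that array alone, where the median difference was still 0.93. The list's median level was 9.49, 9.59 and 9.46 on the A2780 arrays, and 11.66, 9.84 and 11.55 on the CP70 arrays. It was 11.06, 11.17 and 10.44 after decitabine, 8.92, 9.94 and 9.52 after PXD101, and 9.98, 11.08 and 11.23 after both drugs. CP70 replicate 2 and the PXD101 arrays were thus the low CP70-line arrays, together with replicate 1 of the combined arm. After PXD101, 7 of 13 were lower than in CP70 (12 without CP70 replicate 2, 0 against it alone), where 4.03%, 11% and 0% of all genes were lower. The median difference of the list was -1.39, -1.86 and -0.455 in these settings.

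**Figure D4:**
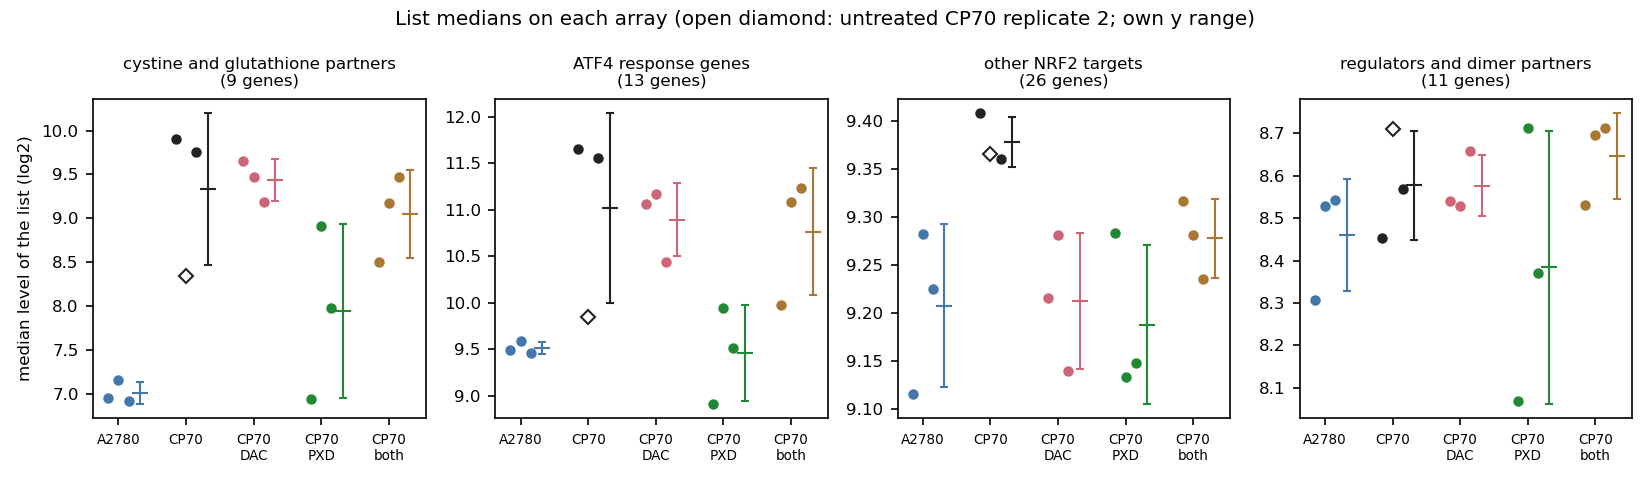
Median level (log2) of each gene list on each array, with group means and SD; the y range differs between lists and the open diamond is the array labelled CP70 replicate 2. The ATF4 list ran from 8.92 on PXD101 replicate 1 to 11.66 on CP70 replicate 1, while the medians of the other NRF2 targets all lay between 9.11 and 9.41.

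As a description over the 15 arrays, the genes whose pattern was most like that of SLC7A11 were EREG (Pearson r = 0.996), TNFSF4 (0.995), CD55 (0.992), KLF6 (0.991) and MAPK8 (0.991). Over the 12 CP70-line arrays alone these values were 0.968, 0.957, 0.921, 0.921 and 0.933. For GCLM they were SPPL2A (0.976), UBE2A (0.973), PSMD12 (0.972), TMCO1 (0.971) and TRAPPC4 (0.968), and for NQO1 they were IL1R1 (0.992), HPSE (0.989), MTFR2 (0.983), UBE2Q2 (0.979) and LINC02875 (0.977). None of the other 9 members was among the 5 genes nearest to SLC7A11, GCLM or NQO1. The points behind these values share the gap between the lines and the arrays that stand apart. Among the members over the 12 CP70-line arrays, HMOX1 went with TXNRD1 (r = 0.836), GCLM (0.833), NFE2L2 (0.788) and SLC7A11 (0.719), and NFE2L2 went with SLC7A11 (0.815). KEAP1 ran opposite to SLC7A11 (-0.738) and to NFE2L2 (-0.705), and NQO1 ran opposite to GCLC (-0.657). The 12 arrays share the CP70 line and fall into 4 groups, so these values are not independent observations.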

How the data were processed

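RNA from 15 samples, labelled biological replicates in 5 groups of 3, was hybridised to Affymetrix arrays; p-values measure only the spread between these arrays. The authors deposited log2 values for 54675 probe sets, and R 2.10.1 and affy are named per the submitters' processing notes. Background correction, normalization and summarization are steps not given in the sources used here. Value range and array medians show the log2 scale. Arrays hold no depth; precision is limited by the number of arrays. The platform annotation, updated through Entrez IDs, gave 41091 probe sets 1 symbol, 1801 several and 11721 none; 62 control probe sets were left out.

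Limma 3.58.1 (lmFit and eBayes, R 4.3.3) was fitted to all 54613 remaining probe sets and 15 arrays with group means only, after tests on simulated data, with calls at an adjusted p under 0.05 (Benjamini-Hochberg). Rank product, the test of the design text, was an alternative (100 permutations, 5% false positives; Python 3.11.15, numpy 2.4.6, pandas 2.3.3, with figures in matplotlib 3.10.9). Differences are between mean log2 values with SE, and folds are 2 to that power. Other alternatives were a 2-fold minimum, only the arrays compared, a replicate block, 1 probe set per gene, probe sets above the median level, repeated quantile normalization, median centring, array weights, the mean of a gene's probe sets, and leaving out arrays.

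Every probe set of the 10 genes entered the main counts. Values of a gene's dimmer probe sets were given only for some comparisons. From each list the 4 genes with the smallest p in CP70 against A2780 were named, SLC3A2 always, and for SLC7A11, GCLM and NQO1 the 5 genes of highest correlation. The members and lists were chosen with earlier results of these data known.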

Additional observations from a re-analysis of the deposited data

How the results depend on the processing

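Counts are of the 22 probe sets called. For most settings the share of all probe sets called was not counted. A change over the whole array and a change in these genes cannot then be told apart. Changes against A2780 kept their direction under every setting tried for SLC7A11, GCLC, GCLM, NQO1 and SRXN1. Comparisons with untreated CP70 depended on which of its arrays were used. Relative to the value with all arrays, no result called in either setting changed sign. Between the other choices of untreated arrays, called values did: HMOX1 was -0.44 without CP70 replicate 2 and 2.19 (called) against it alone after decitabine, and -0.22 and 2.41 (called) after both drugs, while NQO1 after PXD101 was 0.31 (called) and -0.09. With 3 arrays a group and no depth, small changes of dim probe sets were not resolved.

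A 2-fold minimum left 6 in CP70 against A2780, 7 in decitabine, 5 in PXD101 and 8 in both drugs against A2780. It left 0 in decitabine, 2 in PXD101 and 0 in both drugs against CP70, and 1 each in both drugs and in decitabine against PXD101. Rank product gave 4, 4, 5 and 4 against A2780 (CP70, decitabine, PXD101, both drugs), 0 in decitabine and in both drugs against CP70, 4 in PXD101 against CP70, 4 in both drugs against PXD101 and 3 in decitabine against PXD101. Of all 54613 probe sets, rank product called 1423 higher and 1308 lower after decitabine against A2780. Against A2780 it called 1299 and 1372 after PXD101, and 1497 and 1402 after both drugs. Against CP70 it called 522 and 260 after decitabine, and 629 and 390 after both drugs. Fitting only the arrays compared, which leaves fewer arrays for the spread, gave 0 in each drug arm against CP70 and 5 in both drugs against PXD101. Array weights raised the counts to 7 (decitabine), 14 (PXD101) and 9 (both drugs) against CP70, to 8 and 5 for both drugs and decitabine against PXD101, and to 12 for the non-additive response; the cause was not tested. With 1 probe set per gene, which leaves 10 probe sets, the counts were 1, 2 and 1 against CP70 and 8, 5 and 8 against A2780. Median centring left 1 in both drugs against CP70. Without CP70 replicates 1 and 3 together, 1 was called after decitabine and 0 after PXD101.

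Leaving out 1 array at a time gave 11 to 13 in CP70 against A2780, 0 to 7 in decitabine, 0 to 13 in PXD101 and 1 to 4 in both drugs against CP70. It gave 0 to 0 in both drugs against decitabine, 2 to 3 in both drugs and 2 to 4 in decitabine against PXD101, 12 to 14, 10 to 11 and 14 to 16 in the 3 arms against A2780, and 0 to 12 for the non-additive response.

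A replicate block gave 2 in decitabine against CP70, 3 in PXD101 against CP70 and 2 in both drugs against PXD101, and did not alter the other counts. Arrays of the same number deviated together at r from -0.38 to 0.49 (median 0.02), and 4 of 15 arrays correlated best with their own number. No pairing by number was thus seen in these values. Whether replicates were paired in culture or processing was not tested. Over the single genes, settings and comparisons, 1621 calls stayed on the same side of the threshold, 83 were lost and 46 were gained.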
